A study of Mus musculus with 6 samples.

Results

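The genes of the voltage-gated and pacemaker ion channels were followed through hearts that lack the M1 isoform of pyruvate kinase. A gene was taken in when its symbol matched the naming of the potassium (*Kcn*), voltage-gated sodium (*Scn*), voltage-gated calcium (*Cacn*) or hyperpolarization-activated (*Hcn*) channel families, pore-forming and auxiliary subunits alike. By this rule 71 of the 13809 genes with deposited counts were members: 45 potassium, 9 sodium, 15 calcium and 2 pacemaker channel genes. GENCODE M21 annotates 136 genes by the same rule, and 71 of them were in the table, where every gene had at least 59 counts over the 6 libraries.

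Total RNA depleted of ribosomal RNA was sequenced from mouse hearts at embryonic day (E) 18.5, in 3 wild-type (WT) and 3 *Pkm1*-knockout (KO) libraries. The KO embryos were homozygous for a small CRISPR/Cas9 deletion in the *Pkm1*-specific exon 9 of *Pkm*, present in every tissue and made in zygotes of BDF1 mice, a hybrid of C57BL/6J and DBA/2. The labels give no treatment. The labels give heart as the tissue, and the study's text describes ventricular tissue. Library totals ran from 15567624 to 19875546 counts, at which 3 counts are 0.151 to 0.193 CPM (counts scaled to library size by TMM), covering counting error only. The channel genes took 0.264% to 0.278% of a library. Libraries of 1 genotype differed from each other beyond sampling noise, and WT c stood farthest from the other WT libraries. The targeted gene, *Pkm*, fell from 1318 ± 41.1 to 542 ± 10.1 CPM (SD, n = 3 libraries per genotype), and gene counts do not separate its isoforms. The 3 KO libraries had 0 counts of *Kdm5d*, *Uty*, *Ddx3y* and *Eif2s3y*, which lie on the Y chromosome, and 2285 ± 47.6 CPM of *Xist*, which was at 5.26 ± 0.500 CPM in WT. Genotype and sex therefore cannot be told apart in any comparison given here, for autosomal and X-linked genes alike. Of the 71 members, 1 is X-linked, *Kcnd1*. The pre-ribosomal RNA *Rn45s*, a sign of how far ribosomal RNA was removed, stood at 22350 to 25400 CPM in WT and 26560 to 27450 CPM in KO.

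The heartbeat is built from currents that these channels pass in turn. Sodium channels start the action potential, L-type calcium channels sustain it and trigger contraction, and potassium channels repolarize the membrane and hold it at rest, while HCN channels drive the slow depolarization of pacemaker cells. Pore-forming subunits determine which ion passes, and auxiliary subunits tune gating and transport to the membrane. The working myocardium, the conduction system, nerves and vessels use different members of these families, and in RNA from whole tissue fewer cells of a type and less RNA per cell cannot be told apart.

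Of the 71 channel genes, 14 fell and 10 rose in KO hearts (quasi-likelihood test of edgeR, adjusted p under 0.05 by the Benjamini-Hochberg method over the 13804 genes tested, all 71 members among them). These were 19.7% and 14.1% of the members, and over all genes tested 15.7% fell and 14.6% rose. Members called in either direction made up 33.8%, close to the 30.3% of all genes. Changes of at least 1.5-fold were found for 4 genes that fell and 8 that rose, 12 of 71, while 6.19% of all genes tested passed both limits. Of the 13804 genes tested, 442 fell and 413 rose past both. The WT and KO libraries did not overlap for 30 members, or 42.3%, with 42.4% among all genes. The median log2 fold change was -0.06 over the members and 0.00172 over all genes tested. Potassium, sodium and calcium channel genes each held members that fell and members that rose, as the plot of the changes by subunit type shows.

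**Figure D1:**
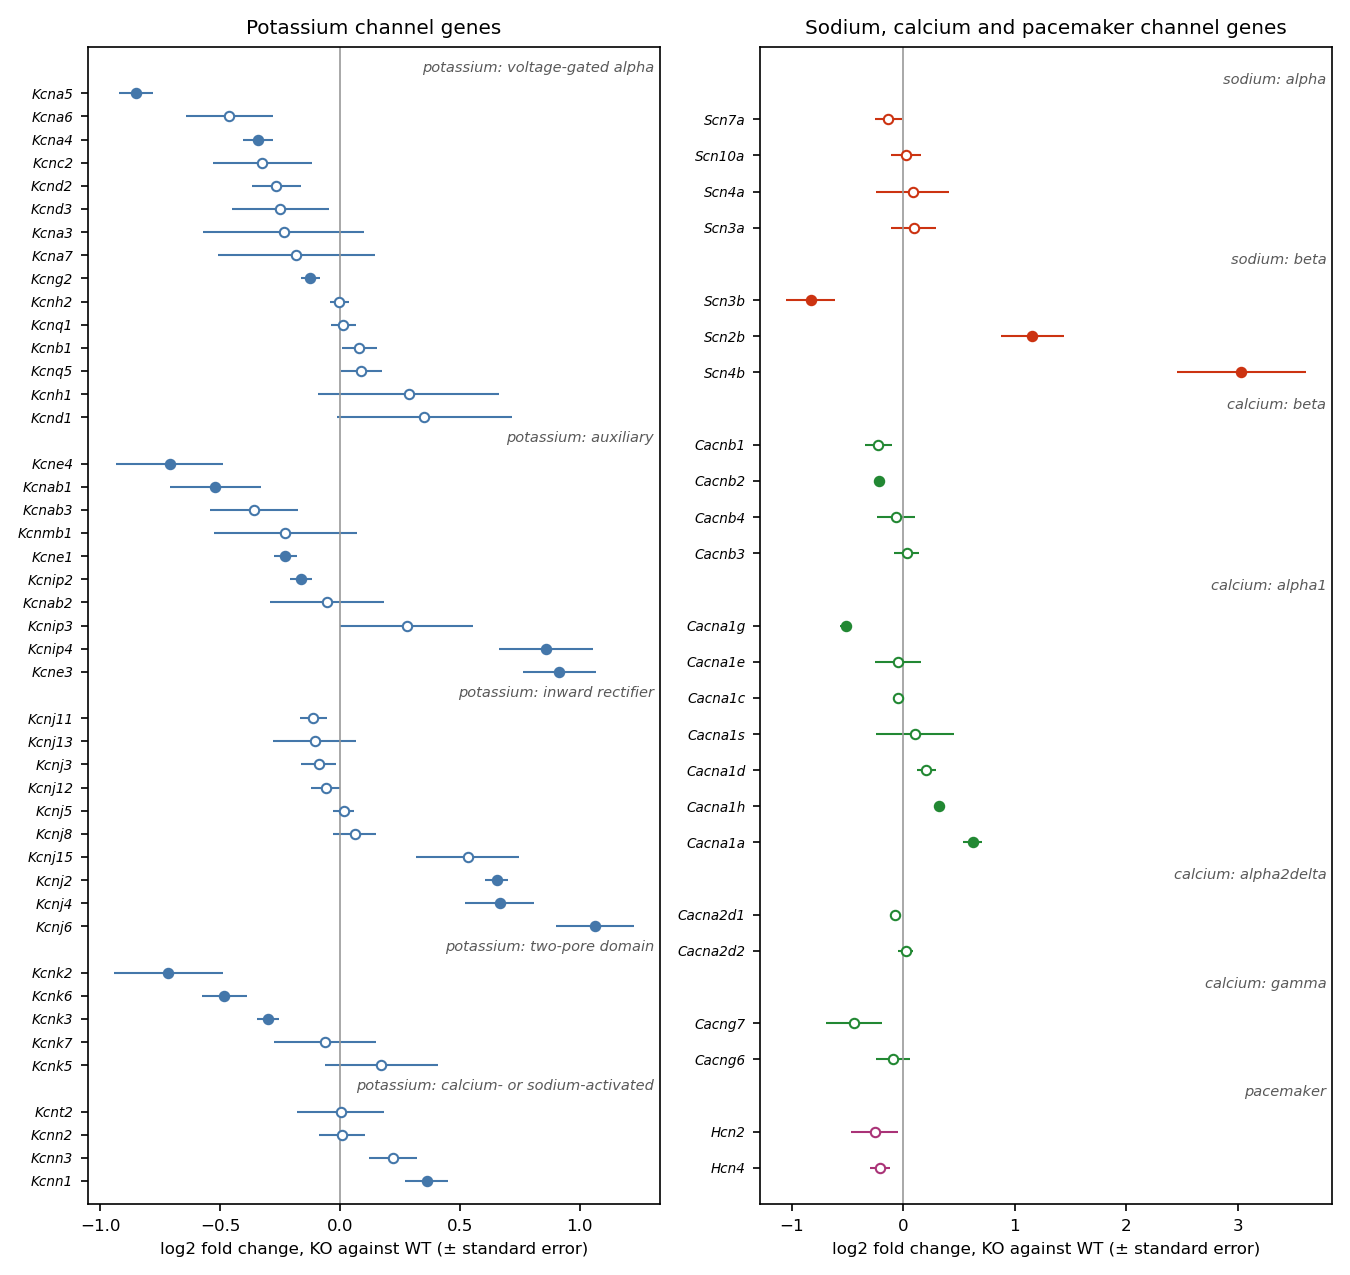
Log2 fold change of 68 of the 71 channel genes in KO against WT hearts (x axis; points with standard error (SE), n = 3 libraries per genotype), grouped by subunit type; filled points passed an adjusted p under 0.05 in the edgeR test. Among potassium channels the filled voltage-gated alpha and two-pore-domain genes all lie to the left of 0 and the filled inward rectifiers all to the right, and *Scn4b* lies farthest right at 3.03.

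Levels were compared between genes per length, as CPM per kilobase of exon (RPKM, mean of the 6 libraries). The most abundant members were *Kcng2*, a silent subunit that modifies other potassium channels, at 49.5 RPKM, and *Cacna1c*, the pore of the cardiac L-type calcium channel, at 38.9 RPKM. *Kcne1* followed at 26.5 RPKM, *Kcnh2* at 25.8 RPKM and *Kcnip2* at 20.7 RPKM. Among the 19 members at 5 RPKM or more, 9 fell and 2 rose (47.4% and 10.5%), and of all 7035 genes tested at that level 21.1% fell and 12.9% rose. Among the 52 members under 5 RPKM, 5 fell and 8 rose (9.62% and 15.4%), and the corresponding shares over all 6674 genes of that level were 10.1% and 16.4%. At this lower level 3 called members fell and 7 rose by at least 1.5-fold, beside 298 and 362 of the 6674 genes. The limit of 5 RPKM was chosen after the values were seen. The 2 abundant members that rose were *Kcnj2* and *Cacna1h*.

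**Figure D2:**
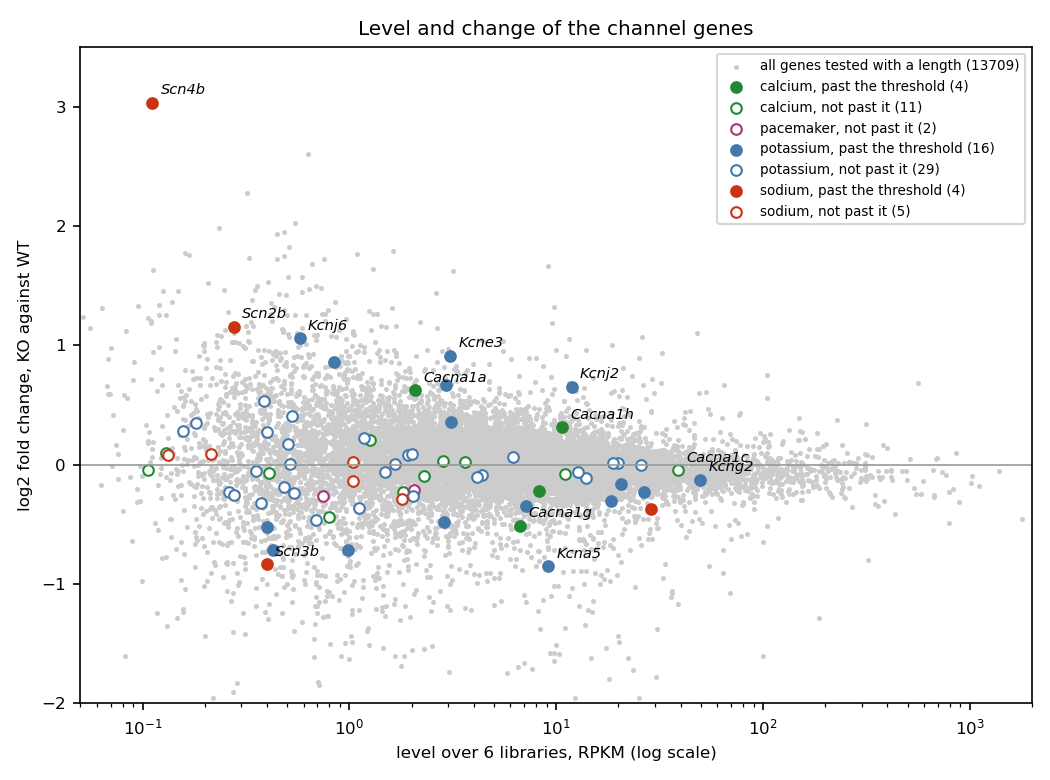
Level of each gene (x axis, RPKM over 6 libraries, log scale) against its log2 fold change in KO against WT (y axis), with channel genes coloured by family, filled where the adjusted p was under 0.05, and all 13709 tested genes with a length in grey (39 lie outside the axes). Most filled points at 5 RPKM or more lie below 0, with *Kcnj2* and *Cacna1h* above it.

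Voltage-gated potassium channel pores carry the transient and delayed repolarizing currents. Of 16 in the table, 3 fell (18.8%) and 0 rose in edgeR's test, beside 15.7% and 14.6% of all genes tested. None of the rises passed without adjustment either (0 genes at a p under 0.05), and DESeq2, edgeR's exact test and limma voom each gave 0. *Kcna5*, the pore of the ultrarapid delayed rectifier (ENSMUSG00000045534.4, GRCm38 chr6:126532551-126535412, minus strand), was at 36.5, 31.9 and 32.8 CPM in the WT libraries and at 19.0, 18.8 and 18.3 CPM in the KO libraries. Every KO library lay well below the lowest WT library. The log2 fold change was -0.85 with a standard error (SE) of 0.07 (adjusted p = 4.01e-10 in the edgeR test), a level 1.80-fold lower. *Kcna4*, a pore of the slowly recovering transient outward current, was at 37.8, 36.2 and 41.4 CPM in WT and 31.1, 30.0 and 29.6 CPM in KO. Its groups did not overlap either, and its log2 fold change was -0.34 (SE 0.06, adjusted p = 0.000142 from edgeR). *Kcng2* fell least among the called members, by 0.12 on the log2 scale, and its adjusted p of 0.0215 from edgeR was over 0.05 without WT c, without any one KO library and under DESeq2, reaching 0.0964. The log2 fold change without WT c was -0.07.

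The other repolarizing pores gave no call. *Kcnd2*, the pore of the fast transient outward current, was at 11.4, 12.4 and 10.2 CPM in WT and at 9.48, 9.85 and 9.12 CPM in KO, with a log2 fold change of -0.27 and an adjusted p of 0.052 from edgeR. The groups did not overlap, though the margin was narrow. *Kcnd3*, a close paralog, had a log2 fold change of -0.25 with a 95% interval of -0.67 to 0.17 at only 0.278 RPKM. The rapid and slow delayed rectifier pores were measured more closely. *Kcnh2* was at 126, 126 and 123 CPM in WT and 119, 125 and 131 CPM in KO, with a 95% interval of the log2 fold change from -0.09 to 0.08. *Kcnq1* was at 80.0, 77.9 and 72.0 CPM in WT and 74.8, 73.9 and 83.6 CPM in KO, with an interval from -0.09 to 0.12. Both groups overlapped in both genes. The antisense RNA *Kcnq1ot1*, at 760 to 846 CPM in WT, shares 3.0% of the exon length of *Kcnq1*, and whether the counting used strand is not given in the sources used here, so reads in that stretch cannot be told apart. A further 8 uncalled pores of this group had log2 fold changes from -0.46 for *Kcna6* to 0.35 for *Kcnd1*, all at 2.01 RPKM or less.

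Inward rectifiers stabilize the resting potential or respond to ATP and to G proteins. Of 10 in the table, 3 rose (30.0%) and 0 fell, beside 14.6% and 15.7% of all genes tested. The share called was near the 30.3% of all genes. All 3 rose by at least 1.5-fold. The count of falls was 0 also at an unadjusted p under 0.05 and with DESeq2, edgeR's exact test and limma voom. *Kcnj2*, the main pore of the ventricular inward rectifier current (ENSMUSG00000041695.2, GRCm38 chr11:111066164-111076821, plus strand), was at 50.3, 48.8 and 51.5 CPM in WT and at 79.2, 81.4 and 76.2 CPM in KO. The lowest KO library stood far above the highest WT library. The log2 fold change of 0.65 (SE 0.05) had the smallest adjusted p among the channel genes, 3.73e-11 in the edgeR test. *Kcnj4*, a further pore of the same current, was at 5.27, 5.05 and 4.14 CPM in WT and 6.62, 9.03 and 7.57 CPM in KO, 1.59-fold higher (adjusted p = 0.000773, edgeR). *Kcnj6*, a G protein-gated pore best known from neurons, was at 3.01, 2.71 and 2.83 CPM in WT and 6.78, 4.99 and 5.96 CPM in KO, 2.09-fold higher (adjusted p = 1.37e-05, edgeR). Neither gene's groups overlapped.

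The abundant relatives of these rectifiers did not pass the test. *Kcnj12*, which can share tetramers with the *Kcnj2* product, was at 34.8, 37.7 and 34.4 CPM in WT and 34.7, 35.0 and 33.1 CPM in KO (95% interval of the log2 fold change -0.19 to 0.06). *Kcnj5* and *Kcnj3*, the subunits of the acetylcholine-activated current, had log2 fold changes of 0.02 and -0.09. *Kcnj11*, the pore of the ATP-sensitive channel of cardiomyocytes, had a log2 fold change of -0.11 (95% interval -0.23 to 0.0043, adjusted p = 0.138 from edgeR), and *Kcnj8*, its vascular counterpart, one of 0.06. *Kcnj15* was higher in every KO library, with a log2 fold change of 0.53 and an adjusted p of 0.0621. *Kcnj13* shares 49.1% and *Kcnj3* 31.1% of their exon length with genes on the opposite strand, as do *Kcna6* with 39.6%, *Cacnb4* with 16.0%, *Kcnk2* with 12.2% and *Cacna1s* with 1309 of its exon bases, so their counts are uncertain.

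Background channels of the two-pore-domain family pass a steady leak that helps to set the resting potential. Of only 5 in the table, 3 fell (60.0%) and 0 rose in edgeR's test, beside 15.7% and 14.6% of all genes tested. There were 0 rises at an unadjusted p under 0.05 or by DESeq2, the exact test or voom. *Kcnk3*, an acid-sensitive leak channel and the most abundant of them at 18.4 RPKM, was at 77.2, 80.8 and 85.0 CPM in WT and at 65.5, 64.9 and 66.4 CPM in KO, a log2 fold change of -0.30 (SE 0.05, adjusted p = 1.67e-05, edgeR). *Kcnk6* was at 14.4, 13.4 and 13.9 CPM in WT and 9.11, 10.3 and 10.4 CPM in KO (log2 fold change -0.48). The 2 genotypes lay apart in both genes. *Kcnk2*, a stretch-sensitive leak channel, was counted 49, 44 and 43 times in the WT libraries and 31, 20 and 34 times in the KO libraries. Its log2 fold change was -0.72 (adjusted p = 0.0177, edgeR), and the adjusted p reached 0.0838 at most with WT a or KO b left out or under DESeq2. Of the 4 calcium- or sodium-activated potassium channels, 1 rose, or 25.0% called, beside 30.3% of all genes tested. It was *Kcnn1*, a small-conductance channel, from 11.6, 12.96 and 13.01 CPM in WT to 16.0, 14.9 and 17.2 CPM in KO (log2 fold change 0.36, adjusted p = 0.00313, edgeR). *Kcnn2*, its relative known from atrial cells, had a log2 fold change of 0.01, and *Kcnn3* one of 0.22. *Kcnk5* and *Kcnk7* had log2 fold changes of 0.17 and -0.06.

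Potassium channel auxiliary subunits moved in both directions, with 4 of 10 lower and 2 higher. *Kcne1*, the beta subunit that slows the *Kcnq1* channel, was at 93.2, 92.3 and 90.0 CPM in WT and 73.6, 78.8 and 82.9 CPM in KO (log2 fold change -0.23, adjusted p = 0.00044, edgeR). All KO libraries lay below all WT libraries. *Kcnip2*, the calcium-binding subunit of the transient outward channel, was at 74.0, 76.4 and 77.2 CPM in WT and 65.7, 69.0 and 68.5 CPM in KO (log2 fold change -0.16, adjusted p = 0.00753, edgeR), and without KO a the adjusted p was 0.0551. *Kcne3*, a beta subunit studied mostly in epithelia, was at 4.40, 3.52 and 3.48 CPM in WT and 7.58, 5.87 and 7.94 CPM in KO, 1.89-fold higher (adjusted p = 4.27e-05, edgeR). *Kcnip4*, a neuronal relative of *Kcnip2*, was at 2.08, 2.04 and 2.43 CPM in WT and 4.08, 3.09 and 4.56 CPM in KO, 1.81-fold higher. *Kcne4* and *Kcnab1* fell with overlapping groups, by 0.71 and 0.52 on the log2 scale. Their adjusted p of 0.0168 and 0.039 from edgeR reached 0.104 and 0.229, the first without WT b, KO a or KO c and the second without WT a, WT b, KO a or KO c, and neither passed DESeq2. *Kcnab2*, *Kcnab3*, *Kcnip3* and *Kcnmb1* had log2 fold changes from -0.36 to 0.28 and no call.

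The study concerns NFYa, a subunit of the factor that binds the CCAAT box, and upstream sequence was therefore read for the members. RefSeq (GRCm38.p6) gave an entry for 53 of the 71 genes, with 78 start sites, and the 250 bases before each start were searched on both strands, with the motifs chosen after the changes were known. The windows of *Kcnj2*, which rose most clearly, *Kcna5*, which fell most clearly, and *Kcnip2*, which fell and held 2 matches, are shown to set their motif content beside their changes, 5′ to 3′ on the strand of the gene, with CCAAT or its reverse complement in capitals. They lie at chr11:111065914-111066163 (plus strand), chr6:126535556-126535805 (minus strand) and chr19:45816064-45816313 (minus strand).
Kcnj2: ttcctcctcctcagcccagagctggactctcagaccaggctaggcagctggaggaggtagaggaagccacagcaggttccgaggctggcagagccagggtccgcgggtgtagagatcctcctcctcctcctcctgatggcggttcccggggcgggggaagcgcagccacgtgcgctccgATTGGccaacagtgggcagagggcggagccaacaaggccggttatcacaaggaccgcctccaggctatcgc
Kcna5: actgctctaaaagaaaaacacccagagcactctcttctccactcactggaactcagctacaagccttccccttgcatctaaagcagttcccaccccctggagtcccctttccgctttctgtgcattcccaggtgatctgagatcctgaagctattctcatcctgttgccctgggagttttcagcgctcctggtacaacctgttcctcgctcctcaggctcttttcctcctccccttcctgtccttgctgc
Kcnip2: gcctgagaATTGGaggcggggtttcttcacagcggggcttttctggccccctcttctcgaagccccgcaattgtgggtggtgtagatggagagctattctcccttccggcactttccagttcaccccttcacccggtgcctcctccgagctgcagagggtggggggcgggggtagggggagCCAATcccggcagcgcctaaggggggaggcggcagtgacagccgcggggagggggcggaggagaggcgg
The *Kcnj2* window held 1 match, 71 bases before the start, the *Kcnip2* window held 2, at 242 and 69 bases, and the *Kcna5* window held none. *Kcne3* and *Kcnip4*, which rose, also each had a window with 2 matches, not shown. CCAAT was found in 30.8% of the 78 member windows and in 33.8% of all 32851 windows. It was in 2 of 13 windows of members that fell, 15.4%, and in 5 of 12 windows of members that rose, 41.7%. Those windows came from 7 of the 14 members that fell and 8 of the 10 that rose, and some genes gave several. Windows are therefore not separate units, and these 2 shares were not tested against each other. GGGCGG was in 41.0% of member windows and 32.7% of all windows, CACGTG in 5.13% and 6.02%, TGANTCA in 5.13% and 6.75%, and TATAAA in 2.56% and 12.4%. A match describes these letters in this window and not binding.

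Sodium channels were represented by 5 pore-forming and 4 beta subunit genes, of which 2 fell and 2 rose. This was 22.2% in each direction, beside 15.7% lower and 14.6% higher over all genes tested. *Scn10a*, a pore best known from sensory neurons, was at 8.46, 6.89 and 9.33 CPM in WT and 6.83, 10.2 and 8.10 CPM in KO, with a log2 fold change of 0.03 (95% interval -0.26 to 0.31). *Scn7a*, *Scn3a* and *Scn4a* were at 1.04 RPKM or less, with log2 fold changes from -0.13 to 0.09 and no call.

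The beta subunits, single-pass proteins that modulate the sodium channel and cell adhesion, included 1 gene that fell and 2 that rose, all at low levels and with no overlap between WT and KO. Over all genes tested 30.3% were called and 42.4% did not overlap. *Scn3b* was counted 45, 57 and 43 times in WT and 27, 29 and 27 times in KO (log2 fold change -0.83, adjusted p = 0.00462, edgeR). *Scn2b* was counted 14, 15 and 12 times in WT and 35, 31 and 28 times in KO (log2 fold change 1.16, adjusted p = 0.00273, edgeR). *Scn4b* was counted 5, 1 and 0 times in WT and 20, 17 and 16 times in KO. In CPM this was 0.290, 0.0510 and 0 in WT, around the level that 3 counts give, and 1.06, 1.07 and 0.859 in KO. Over the summed libraries, 53 counts in KO against 6 in WT gave a ratio of 8.91 after scaling to depth, with an exact 95% interval of 3.83 to 25.4 that covers counting error only. The fitted log2 fold change was 3.03 (adjusted p = 0.000175, edgeR), and it ran from 2.56 to 4.80 as single libraries were left out, with 4.80 reached without WT a, the WT library with most of the counts. *Scn2b* and *Scn4b* are neighbours on chromosome 9, 8.32 kb apart on the same strand, and lie 14.5 Mb from *Pkm*. Linkage of their alleles to the deletion in this mixed background was not tested.

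**Figure D3:**
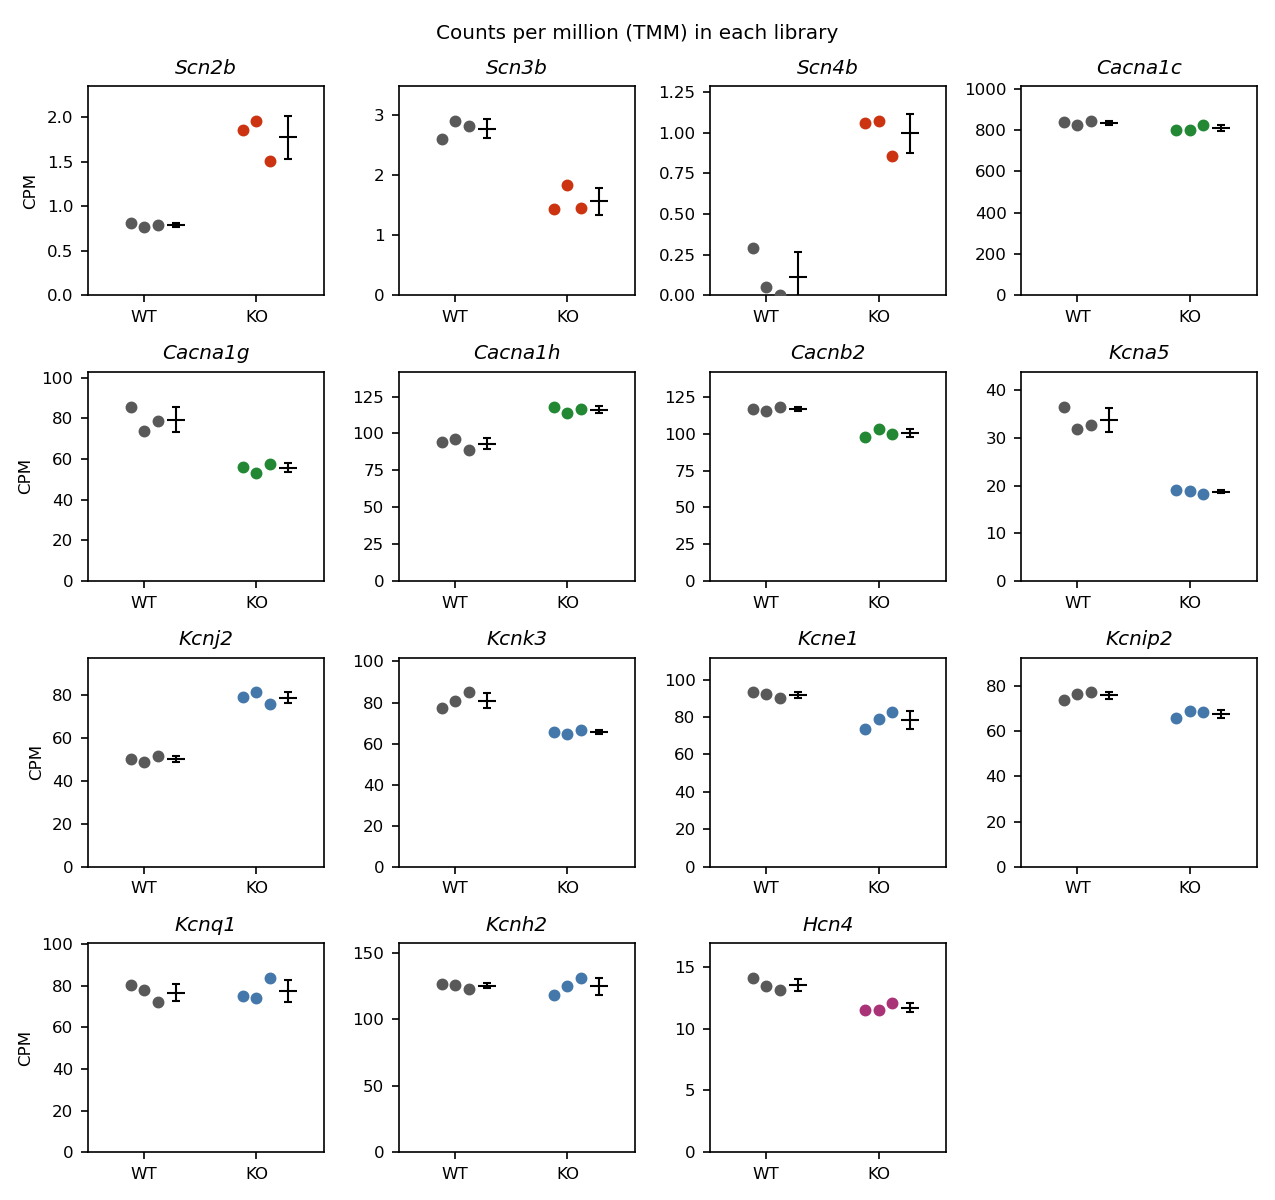
CPM (y axes, from 0, each with its own range) of 15 channel genes in the 3 WT and 3 KO libraries, with the mean ± SD of each genotype at the right of its points. *Kcnj2*, *Cacna1h*, *Scn2b* and *Scn4b* are higher in every KO library, *Cacna1g* and *Kcna5* are lower in every KO library, and *Kcnq1* and *Kcnh2* overlap.

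Calcium channel genes numbered 15, of which 2 fell and 2 rose, and the L-type pore was not among them. This was 13.3% in each direction, beside 15.7% lower and 14.6% higher over all genes tested. *Cacna1c* was at 839, 826 and 846 CPM in WT and 802, 801 and 827 CPM in KO, with a 95% interval of the log2 fold change from -0.10 to 0.005 (adjusted p = 0.165, edgeR). The 2 T-type pores, low-voltage-activated channels that are prominent in fetal myocardium and pacemaker cells, moved apart. *Cacna1g* (ENSMUSG00000020866.17, GRCm38 chr11:94408391-94474198, minus strand) was at 85.8, 73.7 and 78.9 CPM in WT and 56.1, 53.2 and 57.6 CPM in KO, a log2 fold change of -0.51 (SE 0.05, adjusted p = 3.47e-08, edgeR). *Cacna1h* (ENSMUSG00000024112.16, GRCm38 chr17:25374285-25433783, minus strand) was at 94.5, 95.9 and 89.1 CPM in WT and 118, 114 and 116 CPM in KO, a log2 fold change of 0.32 (SE 0.04, adjusted p = 1.29e-06, edgeR). Neither gene's libraries overlapped between genotypes.

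*Cacna1a*, the P/Q-type pore known from nerve terminals, was at 17.9, 16.4 and 22.2 CPM in WT and 28.8, 27.1 and 30.4 CPM in KO, 1.54-fold higher (adjusted p = 2.74e-06, edgeR). *Cacna1d*, the L-type pore of atrial and sinoatrial cells, was higher in every KO library, at 16.7, 17.5 and 16.6 CPM against 14.6, 13.8 and 15.7 CPM in WT, but its adjusted p was 0.0624. *Cacnb2*, the main beta subunit of the cardiac L-type channel, was at 117, 116 and 119 CPM in WT and 97.9, 103 and 100.2 CPM in KO (log2 fold change -0.22, adjusted p = 9.63e-05, edgeR). The alpha2delta genes *Cacna2d1* and *Cacna2d2*, whose products promote channel surface expression, had log2 fold changes of -0.08 and 0.02, and neither passed the test. *Cacnb1*, *Cacnb3* and *Cacnb4* lay between -0.23 and 0.03, and the scarce pores *Cacna1e* and *Cacna1s* were at -0.05 and 0.10, with no call. No gamma subunit gene passed it either: *Cacng7* had a log2 fold change of -0.44 and *Cacng6* one of -0.09 (adjusted p = 0.19 and 0.685, edgeR).

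Pacemaker channels were represented by *Hcn4* and *Hcn2*, and neither passed the test. *Hcn4*, the main channel of the sinoatrial node (ENSMUSG00000032338.9, GRCm38 chr9:58823412-58863175, plus strand), was at 14.1, 13.4 and 13.1 CPM in WT and 11.5, 11.5 and 12.1 CPM in KO. The groups did not overlap, and the log2 fold change was -0.21 (95% interval -0.40 to -0.03, adjusted p = 0.0759, edgeR). The unadjusted p of *Hcn4*, the 1 pacemaker gene under 0.05 by that measure, was 0.0262 in the same edgeR fit, its adjusted p with edgeR's exact test was 0.0474, and DESeq2 and limma voom called 0 pacemaker genes. *Hcn4* lies 0.793 Mb from *Pkm*, the nearest of the 8 members on chromosome 9, and linkage of its alleles to the deletion was not tested. *Hcn2* was at 2.38, 3.11 and 2.23 CPM in WT and 2.38, 1.96 and 2.15 CPM in KO (log2 fold change -0.26, 95% interval -0.70 to 0.18). *Hcn3* was not analysed here. Of 12 conduction system markers in the table, 3 fell and 0 rose, so 25.0% were called, beside 30.3% of all genes tested. The median log2 fold change of the 12 was -0.00523, with 6 below 0 and 6 above. *Tbx3*, a transcription factor of the conduction system, went from 28.6, 29.8 and 30.0 CPM in WT to 19.5, 19.1 and 20.3 CPM in KO (log2 fold change -0.58). *Irx3* fell by 0.25 and *Hopx* by 0.13 on the log2 scale. *Hopx* lost its call without WT b or KO a (adjusted p up to 0.0715, edgeR), and 2 of the markers were higher at an unadjusted p under 0.05 but 0 by DESeq2, the exact test or voom. The summed level of the 12 markers was 545 to 570 CPM in WT and 524 to 546 CPM in KO. The part of conduction tissue in the channel values was not tested.

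Because subunits assemble, the ratio of 2 genes' counts per exon length within a library was taken for 18 pairs of known partners or paralogs. Of these, 15 pairs had at least 10 counts of each gene in every library. The ratio does not depend on library scaling. With 3 against 3 libraries the smallest p of an exact permutation test is 0.1, so no pair could pass, and 6 pairs that did not overlap reached it (adjusted p = 0.25, two-sided). *Kcnj12* to *Kcnj2* went from 1.37, 1.53 and 1.32 in WT to 0.868, 0.851 and 0.859 in KO. *Cacna1h* to *Cacna1g* went from 1.14, 1.35 and 1.17 in WT to 2.19, 2.22 and 2.10 in KO. These 2 pairs had by far the widest gaps between genotypes. *Kcne1* to *Kcnq1* was 1.53 ± 0.0569 in WT and 1.29 ± 0.0578 in KO (SD, n = 3). *Cacnb2* to *Cacna1c* was 0.224 ± 0.000817 in WT and 0.199 ± 0.00679 in KO. *Cacna1d* to *Cacna1c* was 0.0295 ± 0.00159 in WT and 0.0351 ± 0.00151 in KO. *Kcnip2* to *Kcnd2* overlapped, at 9.99 ± 1.10 in WT and 10.6 ± 0.468 in KO, as did the remaining 8 pairs.

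**Figure D4:**
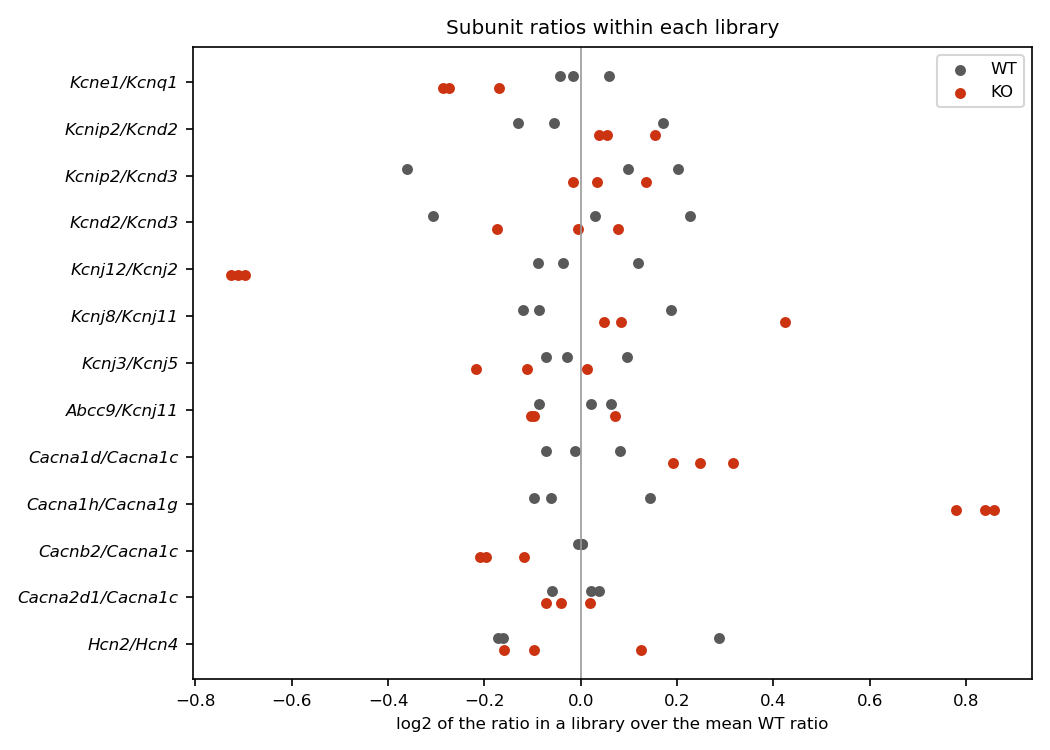
Ratio of the counts per exon length of 2 channel genes in each library, as log2 of the ratio over the mean WT ratio (x axis), for 13 of the 15 pairs (y axis), with 3 WT points in grey and 3 KO points in red per pair. The KO points of *Kcnj12*/*Kcnj2* lie near -0.71 and those of *Cacna1h*/*Cacna1g* near 0.83, apart from all WT points of the pair.

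Proteins that bind or regulate these channels were followed through a list of 36 gene symbols, of which 29 were in the table. In KO hearts 10 fell and 2 rose, 34.5% and 6.9% of the list, beside 15.7% and 14.6% of all genes tested, and the median log2 fold change was -0.0186 beside 0.00172. *Gem*, a small GTPase that inhibits L-type channels through their beta subunits, was at 16.8, 16.6 and 14.7 CPM in WT and 3.13, 2.91 and 2.95 CPM in KO, a log2 fold change of -2.42 (SE 0.12, adjusted p = 6.92e-15, edgeR). *Lrrc10*, a cardiomyocyte protein that interacts with the L-type channel, was at 136, 128 and 137 CPM in WT and 65.9, 59.9 and 64.6 CPM in KO, a log2 fold change of -1.07 (adjusted p = 1.51e-16, edgeR). *Sgk1*, a kinase that raises the surface level of several channels, was at 91.2, 89.2 and 87.8 CPM in WT and 56.3, 50.01 and 57.5 CPM in KO, a log2 fold change of -0.71 (adjusted p = 1.62e-11, edgeR). The groups lay apart in all 3 genes. *Fgf14*, a sodium channel regulator, fell by 0.94 and *Fhl2*, a LIM-domain partner of *Kcne1*, by 0.36 on the log2 scale. *Dpp6*, an auxiliary subunit of the transient outward channel, rose by a log2 fold change of 1.12 at a very low level, and its adjusted p of 0.015 from edgeR was lost without WT a, WT b or KO b and under DESeq2, reaching 0.0798. Smaller changes were found for the sulfonylurea receptors, *Abcc8* at 0.31 and *Abcc9* at -0.16, and for the anchoring proteins *Ank2* at -0.23 and *Akap6* at -0.16, and for *Fgf13* at -0.18 and *Popdc2* at -0.13. *Fgf13* is X-linked, and its change, like every other change given here, cannot be told apart from the sex of the embryos.

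Markers of the tissue's cell types were also called, beside 30.3% of all genes tested and 34.0% of those at 5 RPKM or more. The neuronal and Schwann list, with 33.3% called, was near these shares, and the erythroid and immune list, with 25.0%, was below them. The conduction system list given with the pacemaker genes, with 25.0%, was also below them, and the remaining lists lay above both. No list was tested against all genes, and the part of the markers in the channel values was not tested. All 12 cardiomyocyte markers, most of them not particular to the ventricle, changed, 9 lower and 3 higher. Their summed level was 145500 to 149500 CPM in WT and 138300 to 139600 CPM in KO. *Tnni3*, *Actc1*, *Myh7* and *Ttn* lost the call in at least 1 alternative. Of 10 atrial markers 5 rose and 0 fell, with 0 falls also at an unadjusted p under 0.05 and by DESeq2, the exact test and voom, and their sum went from 1788 to 1805 CPM in WT to 2296 to 2309 CPM in KO, led by *Myl4*, *Myl7* and *Nppa*, with log2 fold changes of 1.10, 0.75 and 0.68. Neuronal and Schwann cell markers were scarce, with 6 of 15 in the table, 1 lower (*Stmn2*, not called by DESeq2) and 1 higher (*Erbb3*), at a sum of 50.9 to 51.3 CPM in WT and 49.9 to 54.4 CPM in KO. *Tubb3*, *Prph*, *Th* and *Snap25* were not among the genes analysed. Of 12 smooth muscle and pericyte markers 4 fell and 1 rose (1560 to 1586 CPM in WT, 1482 to 1499 CPM in KO). Endothelial and fibroblast lists of 10 genes each had 3 lower and 2 higher, with sums of 1277 to 1284 CPM and 3976 to 4019 CPM in WT and 1253 to 1270 CPM and 3715 to 3794 CPM in KO. Of 8 erythroid and immune markers 1 fell and 1 rose, at 61.3 to 65.3 CPM in WT and 65.2 to 77.6 CPM in KO.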

How the data were processed

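Ribosomal RNA-free libraries (KAPA RiboErase and RNA HyperPrep kits) of 3 WT and 3 *Pkm1*-KO hearts were sequenced with paired ends. The submitters' processing notes name cutadapt 1.18, HISAT2, StringTie and mm10; the counting program and its strand setting are not given in the sources used here. For each gene symbol the authors deposited unnormalized counts, 1 column per library, for genes with at least 59 counts over the libraries, beside their own edgeR comparison (fold change, mean level, p-value and false discovery rate), which was not used.

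Columns carry the genotype and no replicate number, so libraries were named a to c by column order. Counts were filtered with filterByExpr (13804 of 13809 genes kept), scaled by TMM and tested across all genes with edgeR 4.0.16 under R 4.3.3 (quasi-likelihood, genotype as the only term, Benjamini-Hochberg adjustment, threshold 0.05). Intervals of a log2 fold change (95%) used the t distribution of that fit. RPKM used the union exon length of GENCODE M21. The test was tried on simulated counts with known changes before use. Python 3.11.15 with matplotlib 3.10.9 made the figures.

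The members and lists were chosen with earlier results of these data known. Genes named are members past the threshold with at least 1.5-fold change, the 5 smallest adjusted p per direction and the 5 most abundant per family, a list of main cardiac currents, and channel partners changed by at least 1.25-fold; the smaller partner changes, the library-specific remarks and the markers were added to these. Alternatives were RLE size factors, DESeq2 1.42.0, edgeR's exact test, limma voom (limma 3.58.1), other count filters, genes on X and Y left out, and each library left out. The libraries are separate biological replicates by the study's methods. A few genes are not reported here. Read depth limits the precision of genes near 3 counts per library.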

Additional observations from a re-analysis of the deposited data

How the results depend on the processing

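Of the 24 channel genes called, 19 kept the call in each of the 13 alternatives that gave them a value (12 for *Scn4b*), and 5 (*Kcnip2*, *Kcne4*, *Kcnab1*, *Kcnk2* and *Kcng2*) lost it in at least 1, while 7 others gained a call in at least 1. The number called ran from 20 with DESeq2 (10 lower, 10 higher) to 29 with edgeR's exact test, and from 20 to 27 with single libraries left out. Over all genes DESeq2 called 3002 and the leave-out fits 3214 to 4319. The pacemaker genes went from 0 to 1 call under edgeR's exact test (*Hcn4*), and the cause was not tested. A minimum of 10 counts in every library left 68 members, without *Scn4b*. No paired analysis was possible because replicate numbers are absent from the column names.

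The sign of the change turned for 21 of the 71 members when single libraries were left out, 10 of them under the rule for named genes and 11 others. For the 10, the log2 fold change then ran from -0.14 to 0.32 for *Cacna1s*, -0.0259 to 0.0611 for *Cacna2d2*, -0.04 to 0.0333 for *Kcnh2*, -0.0196 to 0.0499 for *Kcnj5*, -0.0033 to 0.14 for *Kcnj8*, -0.0548 to 0.059 for *Kcnn2*, -0.0457 to 0.0448 for *Kcnq1*, -0.13 to 0.15 for *Scn10a*, -0.0321 to 0.18 for *Scn3a* and -0.0358 to 0.29 for *Scn4a*. None of the 21 passed the threshold in any fit. Depth limits *Scn4b* most, since its WT libraries held 5 counts or fewer.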
